A study of Homo sapiens with 21 samples.

Results

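The HMLE line, human mammary epithelial cells immortalized by means of a viral large T antigen and telomerase, was compared after 7 days of TGFβ (d7) and before treatment (d0). The members were the libraries labelled day 7 and the untreated ones, 3 of each, 6 of the 21 libraries of a TGFβ time course with 7 timepoints. Both groups were the same line, grown from the same seeding number of 200K cells per well, and total RNA was sequenced. Over these 6 libraries, 13388 of the 23201 gene symbols listed had a mean value of at least 10 and were tested. The d0 cells were harvested at the start and no untreated library of day 7 was analysed here, so 7 days of TGFβ and 7 days of culture cannot be told apart. The TGFβ dose is not given in the sources used here. The RNA is that of a whole culture, in which fewer cells of a type and less RNA per cell cannot be told apart.

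TGFβ is a secreted cytokine that binds a pair of receptor kinases and signals through SMAD proteins, which enter the nucleus and switch on target genes together with partner factors. In epithelial cells it arrests proliferation and induces the epithelial-to-mesenchymal transition (EMT), in which SNAI, TWIST and ZEB transcription factors reduce junctional proteins while mesenchymal adhesion molecules, contractile proteins and extracellular matrix rise. The breast epithelium has an inner luminal layer and an outer basal layer, and HMLE cells are known for their basal features and for undergoing EMT under TGFβ.

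The recovered reads totalled between 18847917 and 22388732 per library, and the values are normalized read counts, each a whole number of reads divided by 1 size factor per library. The column headers give the timepoint but no replicate number, and the d7 libraries are called the first, the second and the third in the order of the file. The third d7 library stood apart. Its root mean square log2 difference was 0.485 from the first and 0.470 from the second, which differed from each other by 0.228, and the 18 pairs of libraries of the other timepoints differed by 0.218 to 0.261. The first d7 library lay 0.857 from the d0 mean, the second 0.836 and the third 0.806, so all 3 were far from untreated cells. The third library was nearest to the d20 mean (0.427) and the d4 mean (0.428), whereas the first and the second were nearest to the d15 mean (0.506 and 0.524). Over genes with at least 100 reads, the chi-square per gene was 3.08 between the first and second d7 libraries and 1.45 to 3.27 between libraries of 1 timepoint elsewhere, against 63.8 and 58.2 between the third d7 library and the others. No pair agreed within sampling noise, for which the value would be near 1. From the d10 mean the first and second libraries lay 0.908 and 0.879, farther than from d0, and the third lay 0.586. The first and second lay 0.539 and 0.528 from the d4 mean. All 3 were kept as labelled. These distances leave the label of the third library in doubt, and whether it is right was not tested. Nor do they show which of the 3 libraries is typical of day 7, so the values without the third are no cleaner measure of that day. Each result is therefore given with and without the third library: a value in parentheses directly after a count, median, fold change or adjusted p is the same quantity with the first and second d7 libraries alone. Values of d7 libraries stand in that order.

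**Figure D1:**
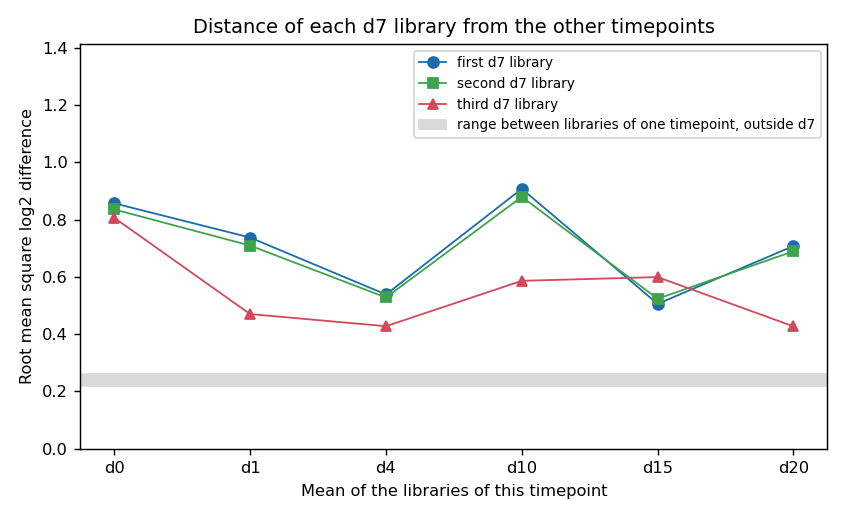
Root mean square log2 difference of each d7 library from the mean of each other timepoint over the genes tested. Points are single libraries, and the grey band is the range of 0.218 to 0.261 between libraries of 1 timepoint outside d7. The third library is nearest to d20 and d4, and the others are nearest to d15.

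The cell type labels were checked against defining markers. All 10 basal mammary markers passed the filter, led by KRT5 with 298352, 281986 and 149134 at d7, and their summed values were 356292 to 380583 at d0 and 734442, 686741 and 365635 at d7. The basal sum was above every d0 library in the first and second d7 libraries and inside the d0 range in the third. Of 12 luminal markers 5 passed, and KRT8 and KRT18 supplied most of a sum of 15442 to 16822 at d0 and 12085, 11500 and 13192 at d7, while PGR, ELF5, KIT, ANKRD30A and PIP were at 0 in all 6 libraries. Among fibroblast markers, DCN, LUM and TCF21 were at 0 in all 6 libraries, although the sum over the 10 markers, carried by collagens, went from 966 to 1051 at d0 to 9374, 8875 and 7199 at d7. TYR and SOX10 of melanocytes, CDH5 of endothelium and AIF1 and TYROBP of leukocytes were at 0, and PTPRC, the pan-leukocyte antigen, had at most 1 read. Other members were expressed, and 3 of 7 melanocyte and 3 of 8 leukocyte markers passed the filter. The summed melanocyte markers were 82.3 to 94.0 at d0 and 96.0, 80.3 and 56.8 at d7. The leukocyte sum was 430 to 445 at d0 and 717, 666 and 578 at d7, mostly from CD68, with a d7 mean of 627. The summed endothelial markers were 91.0 to 116 at d0 and 261, 222 and 90.3 at d7, of which KDR made up most at d7 in the first and second libraries.

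With the limits set at an adjusted p of 0.05 and a 2-fold difference, d7 had 1110 (1303) genes above d0 and 432 (500) below, which is 8.29% (9.73%) and 3.23% (3.73%) of the genes tested. Of these, 1062 higher and 393 lower genes were called in both fits, and 0 were called with opposite signs. Over the genes tested, the log2 fold change had a median of -0.00 (0.01). Higher genes made up 72.0% (72.3%) of the calls, but 55.6% (55.0%) once every library was given an equal total, which moved the median of all genes by -0.19, and 62.7% (61.1%) after quantile normalization. The 10 genes with the highest level at d7, among them FN1 and TGFBI, took 5.10% to 5.16% of the summed value at d0 and 11.9%, 11.4% and 9.49% at d7. At an adjusted p under 0.05 with no minimum fold, the rule used for gene lists, 27.9% (35.9%) of genes were higher and 25.9% (34.2%) lower, so counts of list members are read against these shares. The filter uses the mean of all 6 libraries, so 276 genes with a d0 mean under 10 passed through d7 alone and had to differ, as did 180 through d0 alone. All 3 d7 libraries lay above all 3 d0 libraries for 32.3% of genes and below for 31.5%.

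The 10 largest increases included the matrix genes POSTN, FN1 and COL22A1 and the cadherin CDH11. POSTN, which encodes the matricellular protein periostin, was at 0, 0 and 0 in the d0 libraries and at 171, 199 and 186 at d7, at least 68.0 (67.8)-fold higher against the floor of 3 reads per library. MYO7B, an unconventional myosin of microvilli, had 0, 0 and 0.99 at d0 and 232, 236 and 204 at d7, at least 82.1 (85.8)-fold higher. CDH11, a mesenchymal cadherin, had 0, 0.85 and 0.99 at d0 and 126, 136 and 595 at d7, at least 105 (47.9)-fold higher. These 3 genes were at the floor in each d0 library, passed the filter through d7 alone and had to differ, and CDH11 was highest in the third library. FN1, the matrix protein fibronectin, had 4451, 4110.3 and 4168 at d0 and 428804, 395781 and 481598 at d7, a log2 fold change of 6.68 ± 0.09 (SE, 6.60 ± 0.04 without the third) with an adjusted p of 1.68e-08 (1.23e-38). The groups did not overlap for FN1, which the choice of these 10 genes required, and the third d7 library was the highest. WNT5B, a noncanonical WNT ligand, had 0.89, 0.85 and 4.95 at d0 and 259, 236 and 346 at d7, and COL22A1, a collagen of tissue junctions, had 6.23, 6.79 and 2.97 at d0 and 571, 518 and 679 at d7. With d0 means of 2.23 and 5.33, WNT5B and COL22A1 also passed the filter through d7 alone and had to differ. TGM2, a transglutaminase that cross-links matrix proteins, had 247, 218 and 229 at d0 and 16000.5, 15693 and 23312 at d7, and its log2 fold change was 6.28 (6.09). KANK4, of a family of adhesion-site proteins, rose by 6.20 (6.34) on the log2 scale, SCG5, a secretory granule chaperone, by 5.95 (5.63), and IGFBP3, which binds insulin-like growth factors, by 5.94 (6.48). SCG5 was highest in the third library (662, 647 and 1281), and IGFBP3 was lowest there (3951, 3836 and 1264), both far above d0 in all 3.

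The 10 largest decreases included KRT13 and SPRR1A, of stratified epithelium, and the metabolic enzymes BBOX1 and GLDC. CAMK2B, a calcium-dependent kinase subunit, had 1929, 1909 and 1988 at d0 and 79.2, 78.2 and 68.9 at d7, a log2 fold change of -4.67 ± 0.08 (SE, -4.61 ± 0.07 without the third) with an adjusted p of 7.44e-08 (6.09e-30). All 3 d7 libraries were alike for CAMK2B and far below d0. ANKRD22 had 388, 351 and 370 at d0 and 14.8, 18.8 and 12.1 at d7, and BBOX1, which makes carnitine, had 303, 277 and 249 at d0 and 17.9, 22.9 and 4.65 at d7. GLDC, the decarboxylase of glycine cleavage, had 226, 232 and 251 at d0 and 14.8, 7.30 and 24.2 at d7, and TMEM125 had 137, 123 and 134 at d0 and 10.6, 6.26 and 10.2 at d7. The third d7 library had the lowest value for CAMK2B, ANKRD22, BBOX1, PSAPL1, PRR15L, KRT13 and SPRR1A, with PSAPL1 at 7.39, 2.09 and 0.93 and PRR15L at 7.39, 10.4 and 0.93 in the d7 libraries, and the highest for GLDC and KLK9. The log2 fold change was -4.29 (-3.83) for PSAPL1, -4.27 (-3.49) for PRR15L and -3.63 (-3.75) for the kallikrein protease KLK9. The 10 decreases were chosen by their call with all 3 d7 libraries. All were also called without the third, in a fit that reuses the other libraries and so is no independent support. PSAPL1, PRR15L, TMEM125 and KLK9 had d7 means of 3.47, 6.25, 9.02 and 4.66. These 4 passed the filter through d0 alone and had to differ.

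**Figure D2:**
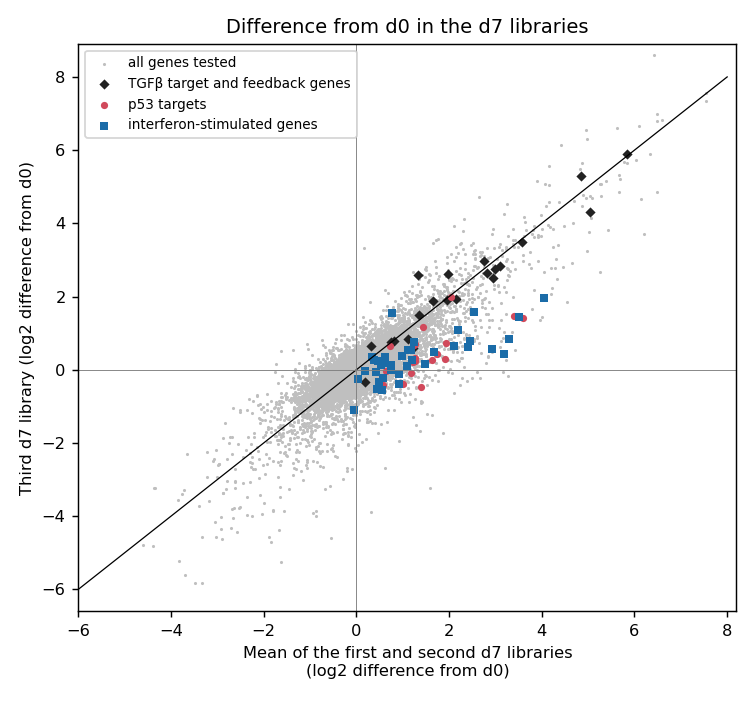
Log2 difference from the d0 mean in the third d7 library against the mean of the first and second, with 1 point per gene tested and the line of equal values. The third library is the lowest of the 3 for 21 of 22 p53 targets and 35 of 37 interferon-stimulated genes, which lie below the line.

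Of 25 TGFβ target and feedback genes, 21 passed the filter, and 20 (20) were higher and 0 (0) lower, with a median log2 fold change of 2.07 (1.97). Their medians in the d7 libraries were 2.03, 1.96 and 2.49, and the third library was the lowest of the 3 for 11 of these genes and the highest for 8. PMEPA1, which dampens SMAD signalling, had 340, 329 and 376 at d0 and 10132, 10018 and 13712 at d7, a log2 fold change of 5.001 ± 0.12 (SE, 4.85 ± 0.05 without the third) with an adjusted p of 2.41e-07 (1.36e-32). TGFBI, a matrix protein named for its induction by TGFβ, had 14026, 13919 and 13589 at d0 and 461755, 447326 and 275794 at d7. TGFBI was lower in the third library than in the others and far above d0 in all 3. The inhibitory SMAD7 had 117, 99.2 and 106 at d0 and 791, 740.2 and 669 at d7, and SKIL, a repressor of SMAD complexes, had 290.1, 237 and 248 at d0 and 1009, 1005 and 969.8 at d7. CTGF and CYR61, matricellular proteins of the CCN family, rose by 3.01 (3.09) and 2.83 (2.76) on the log2 scale, IL11 by 3.54 (3.56) and JUNB by 2.19 (1.97). FST, which traps activins, was the only member tested that did not pass in either fit, at a log2 fold change of 0.01 (0.18).

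Ligands, receptors and SMADs moved less than the targets. Of 22 members 21 passed the filter, 13 (14) were higher and 4 (5) lower, and the median log2 fold change was 0.26 (0.30). Without the first d0 library 2 were lower. Among ligands, TGFB1 had 1257, 1336 and 1305 at d0 and 3203, 3041 and 3069.6 at d7 and TGFB2 had 36.5, 31.4 and 19.8 at d0 and 70.7, 83.4 and 88.4 at d7, and both rose, while TGFB3 had 34.7, 30.5 and 29.7 at d0 and 21.1, 18.8 and 16.8 at d7 and fell. INHBA, the activin A subunit, had 308, 252 and 299 at d0 and 1946, 1709 and 2640.5 at d7, a log2 fold change of 2.85 (2.67). LTBP2, one of the proteins that anchor latent TGFβ in matrix, had 660.3, 652 and 659 at d0 and 5381, 5082 and 4407 at d7, and LTBP1 rose by 1.79 (1.91) and LTBP4 by 1.18 (1.26). Among receptors, TGFBR1, the type I kinase, had 1266, 1285 and 911 at d7 against a d0 mean of 761, a log2 fold change of 0.59 (0.75), and the type II receptor TGFBR2 changed by 0.23 (0.16). The coreceptor TGFBR3 had 73.0, 73.8 and 56.4 at d0 and 33.8, 34.4 and 16.8 at d7 and fell, at a log2 fold change of -1.29 (-0.96), lowest in the third library. The signal-carrying SMAD2 had a log2 fold change of 0.02 (0.03) and did not pass, SMAD4 had 0.15 (0.16) and was called higher, and SMAD3 had -0.13 (-0.37), called lower only without the third library, which was above d0. The calls of TGFB3 without the first or second d0 library (adjusted p = 0.0534 to 0.0699), of TGFBR2 without any 1 d0 library (0.0546 to 0.0876) and of SMAD4 without any 1 library but the third d7 one (0.0781 to 0.127) did not pass. Positive fold changes below about 0.19, such as those of SMAD2 and SMAD4, turned negative when the libraries were rescaled to the same total. The ID genes, inhibitors of differentiation that respond to BMP and TGFβ signals, were higher in 3 of 3 members tested, with ID1 at 434, 347 and 347 at d0 and 963, 931 and 974 at d7, ID3 at a log2 fold change of 1.34 (1.42) and ID2 at 2.41 (2.37). ID2 passed the filter through d7 alone and had to differ, and the other 2 members tested were both higher. ID4 was listed at 0.

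**Figure D3:**
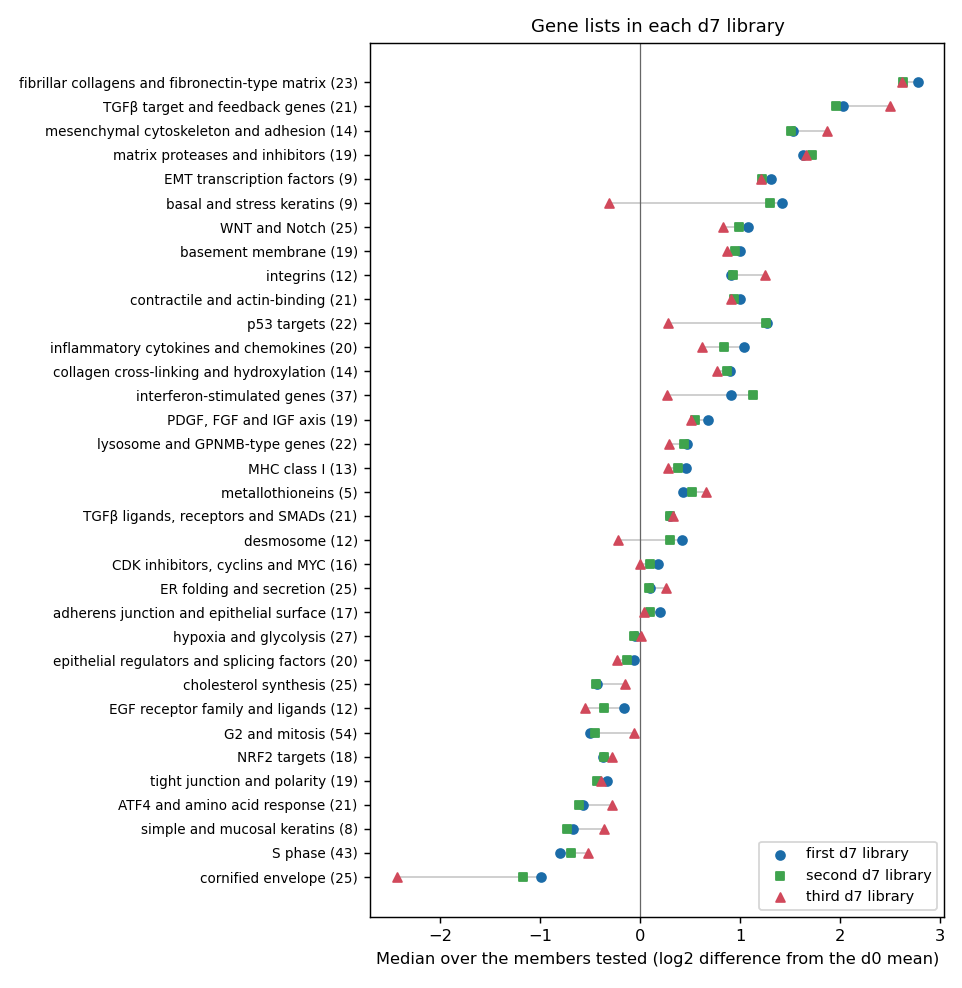
Median log2 difference from the d0 mean over the tested members of each gene list, in each d7 library, for lists with at least 5 tested members (number in brackets). The fibrillar matrix list has its 3 medians between 2.62 and 2.78, the TGFβ target list has the third library highest, and basal keratins, p53 targets, interferon-stimulated genes and the cornified envelope have the third library lowest.

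The 8 mesenchymal genes among the 15 hallmark EMT genes drawn by the study were all higher at d7 in both fits, and the 7 epithelial ones were mixed. SNAI2, a zinc finger repressor of epithelial genes, had 1336, 1239 and 1168 at d0 and 5578, 5211 and 6126 at d7, a log2 fold change of 2.17 ± 0.08 (SE, 2.11 ± 0.05 without the third) with an adjusted p of 1.12e-06 (1.78e-24). ZEB1, another such repressor, had 6.23, 5.94 and 4.95 at d0 and 36.9, 35.5 and 69.8 at d7, so it was low at d0 and highest in the third d7 library. ZEB1, counted among the 8, had a d0 mean of 5.71, passed the filter through d7 alone and had to differ. ZEB2 had 19.6, 16.96 and 10.9 at d0 and 40.1, 53.2 and 33.5 at d7, TWIST1 had 104, 109 and 83.1 at d0 and 245, 229 and 228 at d7 and TWIST2 had 46.3, 56.8 and 62.3 at d0 and 96.0, 107 and 155 at d7. All d7 libraries were above all d0 libraries for these factors. VIM, the intermediate filament of mesenchymal cells, had 5215, 5231 and 5097 at d0 and 31030.1, 30181 and 42311 at d7, and CDH2, N-cadherin, had 9.79, 9.33 and 13.8 at d0 and 74.9, 59.4 and 105 at d7. Both were highest in the third library, and their log2 fold changes were 2.72 (2.56) and 2.73 (2.52). SOX4, a high-mobility-group factor, rose by 2.59 (2.71), the most among the EMT factors with a d0 mean of at least 10, and SOX9 fell, at a log2 fold change of -0.45 (-0.53). SNAI1, a close relative of SNAI2, stayed at or under the floor in all 6 libraries, and FOXC2 and PRRX1 did not pass the filter.

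Of the epithelial hallmark genes, CDH1, the adherens junction protein E-cadherin, had 7314, 6946 and 7324 at d0 and 7923, 7599 and 6239.6 at d7. The first and second d7 libraries were above the d0 mean and the third below it, the log2 fold change was 0.00 (0.11) with an adjusted p of 0.97 (0.016), and the call of higher levels was made only without the third. ESRP1, a splicing factor of epithelial isoforms, had 3884, 4117 and 4023 at d0 and 4648, 4502 and 4040.3 at d7, and was likewise called higher only without the third. Rescaling to the same total moved the median of all genes to about -0.19. The change of CDH1 is smaller than this shift and that of ESRP1, 0.13 (0.19), no larger, so neither call shows a rise independent of the scaling. Its paralogue ESRP2 had 1886, 1910.1 and 1985 at d0 and 846, 778 and 1029 at d7 and fell, at a log2 fold change of -1.13 (-1.25). OCLN, the tight junction protein occludin, had 232, 216 and 229 at d0 and 111, 89.7 and 86.6 at d7 and fell, at a log2 fold change of -1.24 (-1.17), and OVOL2, a repressor of ZEB1, had 125, 119.6 and 105 at d0 and 74.9, 90.7 and 95.9 at d7 and fell, at a log2 fold change of -0.42 (-0.49). The call of OVOL2 did not pass without the first or second library of either group (adjusted p = 0.0652 to 0.127). OVOL1 had 231, 229 and 247 at d0 and 179, 155 and 238 at d7 and was called lower only without the third. MUC1, an apical mucin, had 60.5, 63.6 and 66.3 at d0 and 65.4, 61.5 and 44.7 at d7 and was not called in either fit.

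**Figure D4:**
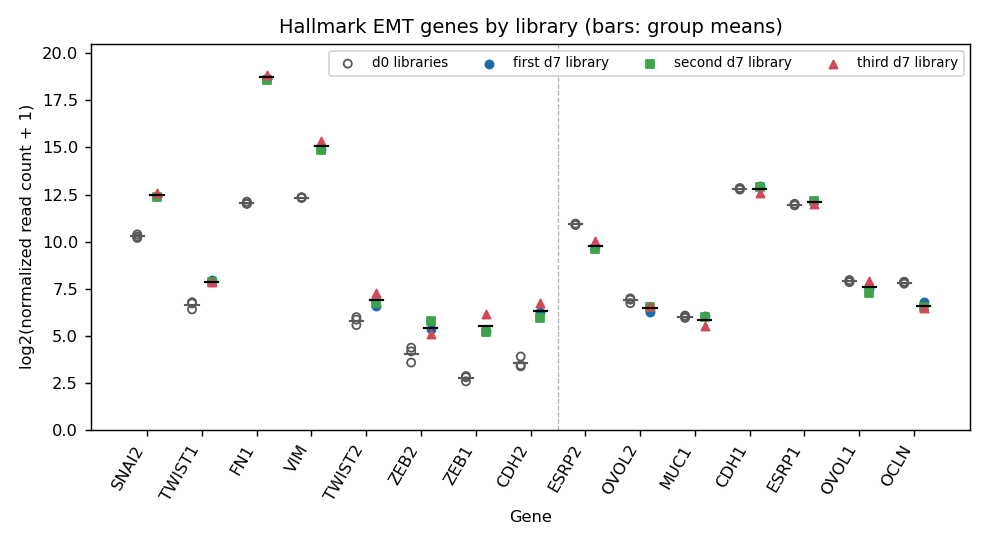
Log2(normalized read count + 1) of the 15 hallmark EMT genes in each library, open circles for d0 and filled symbols for d7, with bars at the group means and a dashed line between the 8 mesenchymal and 7 epithelial genes. The d7 libraries lie above d0 for every mesenchymal gene, of which ZEB1 passed the filter through d7 alone, whereas CDH1, ESRP1, MUC1 and OVOL1 overlap d0.

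Mesenchymal adhesion and cytoskeletal genes were higher in 11 (11) of 14 members tested of 17 listed and lower in 1 (1), with a median log2 fold change of 1.72 (1.52). FAP, a serine protease of activated stromal cells, had 28.5, 18.7 and 25.7 at d0 and 928, 1002 and 841 at d7, and SPOCK1, a secreted proteoglycan, had 154, 149 and 144 at d0 and 1864, 1921 and 2109 at d7. The groups were far apart for both, with the d7 libraries close to each other. PDPN, the mucin-like podoplanin, rose by 2.35 (2.50), NT5E (CD73) by 2.04 (1.78), THY1 (CD90) by 1.399 (1.26), CD44 by 0.89 (0.89) and the kinase receptor AXL by 0.80 (0.60). S100A4, a calcium-binding protein often used as a mesenchymal marker, had 109, 72.9 and 86.1 at d0 and 52.8, 59.4 and 44.7 at d7 and fell, at a log2 fold change of -0.75 (-0.65). PDGFRB and ENG were not called in either fit.

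The interstitial matrix fills the space between cells. Of 27 fibrillar collagens and fibronectin-type matrix genes, 23 passed the filter, 21 (22) were higher and 0 (0) lower, and the median log2 fold change was 2.58 (2.71). Of these, 8 had a d0 mean under 10 and passed through d7 alone, and among the other 15 members 13 (14) were higher, with a median of 2.005 (2.21). COL1A1, a chain of type I collagen, had 449, 457 and 479 at d0 and 7469, 7251 and 5859.9 at d7, and COL1A2, its partner chain, had 2.67, 2.54 and 3.96 at d0 and 161, 146 and 106 at d7. COL3A1 had 5.34, 10.2 and 7.92 at d0 and 58.0, 52.1 and 27.0 at d7 and COL5A1 had 0, 0 and 0 at d0 and 31.7, 25.0 and 21.4 at d7. The d7 libraries were above d0 for each of these collagens and lowest in the third. VCAN, the proteoglycan versican, rose by 5.54 (5.66), FBLN5, an elastic fibre protein, by 5.31 (5.39), THBS1, an activator of latent TGFβ, by 3.77 (3.64), and TNC, tenascin C, by 2.58 (2.79). THBS1 had 89925, 85825 and 115722 at d7 against a d0 mean of 7040.4, highest in the third library. THBS2 was not called in either fit, and BGN, with 135, 99.0 and 65.2 at d7 against a d0 mean of 65.8, was called only without the third.

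Basement membrane genes were higher in 18 (18) of 19 members tested of 20, with a median log2 fold change of 1.02 (0.97). Leaving aside 2 that passed through d7 alone, 17 (17) of 17 were higher. LAMA3 and LAMB3 encode chains of laminin-332, the laminin under basal epithelial cells, and both rose: LAMA3 had 8804, 8245 and 8058 at d0 and 74383, 72666 and 72726 at d7 and LAMB3 had 8835, 8517 and 8817 at d0 and 61087, 56341 and 60589.8 at d7. Their log2 fold changes were 3.13 (3.14) and 2.77 (2.75), and the third library was within the range of the others. The type IV collagen chains COL4A1 and COL4A2 rose by 1.86 (1.78) and 1.87 (1.81), COL7A1, of anchoring fibrils, by 1.75 (1.82), and the hemidesmosomal COL17A1 by 1.63 (1.85). NID1, which links laminin to collagen IV, had 2.67, 3.39 and 1.98 at d0 and 22.2, 28.1 and 3.72 at d7, far above d0 in the first and second libraries alone, and its call did not pass without any 1 of the other 5 libraries (adjusted p = 0.072 to 0.124). Among enzymes that modify collagen, 10 (11) of 14 tested were higher and 0 (1) lower. LOX, which oxidizes lysines to form cross-links, had 334, 329 and 303 at d0 and 11409.9, 10363 and 8345 at d7, P4HA3, a prolyl hydroxylase subunit, had 16.9, 16.96 and 23.8 at d0 and 367, 335 and 309 at d7, and their log2 fold changes were 4.95 (5.08) and 4.08 (4.14). LOXL3 was called lower only without the third, at -0.36 (-0.48).

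Integrins, the matrix receptors, were higher in 10 (10) of 12 members tested of 16 listed. ITGB6, which with ITGAV binds and activates latent TGFβ, had 1222, 1199 and 1232 at d0 and 9428, 9519 and 12253 at d7, and ITGAV rose by 1.52 (1.57). ITGB4 and ITGA6, the laminin-332 receptor of hemidesmosomes, rose by 2.29 (2.40) and 0.94 (0.95), and the fibronectin receptor chain ITGA5 by 1.69 (1.56). ITGB1, the common beta chain, had 21281, 21054 and 21013 at d0 and 36129, 37319 and 39271 at d7. ITGB8 was the integrin tested that fell, with 818, 731 and 818 at d0 and 545, 496 and 447 at d7, and ITGA10 was not called in either fit. Of 23 matrix proteases and inhibitors 19 passed the filter, and 15 (17) were higher and 1 (1) lower. Without 2 that passed through d7 alone, 13 (15) of 17 were higher. The gelatinase MMP2 had 59.6, 71.2 and 50.5 at d0 and 1637, 1533 and 1475 at d7, and MMP9, another gelatinase, had 39.2, 46.6 and 33.6 at d0 and 1280.1, 1259 and 3189 at d7. MMP9 was highest in the third library. ADAM19 rose by 4.45 (4.15), SERPINE2 by 3.77 (3.79), the membrane protease MMP14 by 1.89 (1.88) and the plasminogen activator PLAU by 1.42 (1.36). PLAT, the other plasminogen activator, had 287, 275 and 317 at d0 and 32.7, 28.1 and 60.5 at d7 and fell, at a log2 fold change of -2.90 (-3.23), and SERPINB2 was not called.

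Contractile and actin-binding genes were higher in 17 (18) of 21 members tested of 22 listed and lower in 1 (1), with a median log2 fold change of 0.95 (0.97). Without 1 member that passed through d7 alone, 16 (17) of 20 were higher, with a median of 0.88 (0.88). TAGLN, transgelin, had 166, 186 and 152 at d0 and 3229, 3154 and 1723 at d7, lower in the third d7 library than in the others and far above d0 in all 3. ACTA2, smooth muscle actin, had 354, 342 and 339 at d0 and 838, 833 and 543 at d7, and MYL9, a regulatory myosin light chain, had 66.8, 85.7 and 74.2 at d0 and 348, 363 and 251 at d7. FLNC, a filamin of muscle, had 8.01, 5.09 and 4.95 at d0 and 70.7, 57.3 and 68.9 at d7. TPM1, a tropomyosin that stabilizes actin filaments, rose by 2.11 (2.09) and ACTN1, an actin cross-linker of focal adhesions, by 1.14 (1.09). TPM2, another tropomyosin, had 5558, 5789 and 5915 at d0 and 4382, 4446 and 5207 at d7 and was the member that fell, at a log2 fold change of -0.30 (-0.38), and CNN1, a smooth muscle calponin, was at 0 in all 6 libraries.

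Junction genes did not move as 1 group. Among 19 tight junction and polarity genes tested of 21 listed, 3 (5) were higher and 9 (9) lower, with a median log2 fold change of -0.42 (-0.41), and without the second or the third d0 library 1 was higher. Leaving aside 1 member that passed through d0 alone, 8 (8) of 18 were lower, with a median of -0.32 (-0.34). CLDN1, a claudin, had 1321, 1195 and 1244 at d0 and 374, 341 and 86.6 at d7, lowest in the third library. CRB3, a polarity protein of the apical membrane, had 198, 215 and 212 at d0 and 81.3, 51.1 and 69.8 at d7, and CGN, cingulin, had 545, 569 and 569 at d0 and 185, 180.4 and 185 at d7. Both were well below d0 in all 3 d7 libraries, with log2 fold changes of -1.64 (-1.68) and -1.61 (-1.61). TJP3, PARD6B and LLGL2 fell as well, at log2 fold changes of -2.39 (-2.23), -1.67 (-2.15) and -0.92 (-0.83), while LSR rose by 0.53 (0.59) and TJP1 by 0.46 (0.30). The TJP1 call did not pass without the second or the third d0 library (adjusted p = 0.0544 and 0.0548). CLDN8, a further claudin, had a mean below the filter, with 10.7, 19.5 and 15.8 at d0 and 0, 1.04 and 0 at d7.

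Of 17 adherens junction and epithelial surface genes, 4 (10) were higher and 2 (2) lower, at a median of 0.12 (0.16) that turned to -0.07 after rescaling to the same total. EPCAM, an epithelial cell adhesion molecule, had 2162, 2058 and 2099 at d0 and 263, 273 and 355 at d7 and fell, at a log2 fold change of -2.84 (-2.97), and ST14, the membrane protease matriptase, fell, at a log2 fold change of -1.12 (-1.06). CDH3, P-cadherin of basal cells, had 9409, 9577 and 9846 at d0 and 18416, 17434 and 15496 at d7 and rose by 0.83 (0.90), and CD24, a surface sialoprotein, had 660.3, 631 and 703 at d0 and 3019, 2925 and 1410.1 at d7. CD24 was above d0 in all 3 d7 libraries and lowest in the third. Of the 12 desmosomal genes 5 (9) were higher and 2 (2) lower, and without the first or the second d0 library 3 were higher. Leaving aside 1 member that passed through d0 alone, 1 (1) of 11 was lower. DSP, desmoplakin, had 21103, 20446 and 20618 at d0 and 43206, 41739 and 26956 at d7, DSG3, a desmoglein of basal cells, had 7695, 6954 and 7287 at d0 and 14194, 13821 and 5694 at d7, and DSG1, a desmoglein of differentiated layers, had 59.6, 58.5 and 36.6 at d0 and 6.33, 4.17 and 1.86 at d7. DSP was above d0 in all 3 d7 libraries, DSG3 was above in the first and second and below in the third, and DSG1 fell in all 3. The catenins CTNNB1 and CTNNA1 had log2 fold changes of 0.12 (0.10) and 0.05 (-0.03).

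Of 20 epithelial transcription factors and splicing regulators tested, 4 (8) were higher and 8 (10) lower. With all 3 d7 libraries that is 20% higher and 40% lower, against 27.9% and 25.9% of all genes tested. The higher members were thus no larger a share than among all genes in that fit. ELF3, an epithelium-specific ETS factor, had 248, 215 and 218 at d0 and 29.6, 26.1 and 36.3 at d7 and fell, at a log2 fold change of -2.86 (-2.98). The grainyhead factors GRHL1, GRHL2 and GRHL3 fell, at log2 fold changes of -2.07 (-1.95), -0.67 (-0.51) and -1.16 (-0.63). GRHL3 had 81.3, 85.5 and 27.0 in the d7 libraries against a d0 mean of 129, so it was lowest in the third, and its call did not pass without any 1 of the d0 libraries (adjusted p = 0.0921 to 0.107). KLF4 had 331, 286 and 299.8 at d0 and 898, 856 and 674 at d7 and rose by 1.39 (1.52), and TP63, the master factor of basal epithelium, had 4574, 4250.3 and 4534 at d0 and 6554, 6336 and 5911 at d7 and rose by 0.49 (0.53).

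Promoters were searched for the letters of 2 elements on both strands, in windows from 250 bases before to 50 bases after the start of each gene in RefSeq (GRCh38.p14). One was a SMAD-type element (CAGACA or TGTCTG) and the other an E-box of the kind bound by ZEB and SNAI factors (CACCTG or CAGGTG). Of the genes tested, 9282 matched a promoter by symbol, including 753 of the genes higher and 270 of the genes lower by at least 2-fold. The E-box letters stood in 95 of these 270 promoters, 35.2% (31.1%), against 17.5% (18.2%) for the higher genes, 18.3% for all genes tested and 20.6% of all 27305 promoters in the table. The SMAD-type letters stood in 17.04% (15.9%) of the lower genes, 15.3% (14.97%) of the higher genes, 12.3% of all genes tested and 16.8% of all promoters. The 2 elements overlapped in 16 promoters of genes tested. Shown here are the promoters of a junction gene that fell and holds the E-box 5 times (CRB3), one with both elements (OCLN), one that holds the E-box 3 times and whose gene was not called (AP1M2), and a TGFβ target that rose with both elements (PTHLH). They lie at chr19:6464021-6464320 (plus strand), chr5:69492297-69492596 (plus strand), chr19:10587263-10587562 (minus strand) and chr12:27969927-27970226 (minus strand) and read 5′ to 3′ in the direction of the gene, with both elements in capitals.
CRB3: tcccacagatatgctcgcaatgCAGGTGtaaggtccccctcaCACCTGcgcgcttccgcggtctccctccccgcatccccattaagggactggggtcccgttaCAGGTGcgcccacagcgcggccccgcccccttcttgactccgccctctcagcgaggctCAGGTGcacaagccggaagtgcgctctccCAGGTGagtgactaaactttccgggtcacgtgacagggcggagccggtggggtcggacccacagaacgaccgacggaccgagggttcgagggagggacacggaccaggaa
OCLN: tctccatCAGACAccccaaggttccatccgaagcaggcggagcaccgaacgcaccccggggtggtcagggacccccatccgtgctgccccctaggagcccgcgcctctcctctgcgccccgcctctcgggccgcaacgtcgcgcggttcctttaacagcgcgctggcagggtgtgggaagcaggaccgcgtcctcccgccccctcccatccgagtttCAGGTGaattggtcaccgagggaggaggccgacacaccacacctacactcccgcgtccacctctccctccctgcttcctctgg
AP1M2: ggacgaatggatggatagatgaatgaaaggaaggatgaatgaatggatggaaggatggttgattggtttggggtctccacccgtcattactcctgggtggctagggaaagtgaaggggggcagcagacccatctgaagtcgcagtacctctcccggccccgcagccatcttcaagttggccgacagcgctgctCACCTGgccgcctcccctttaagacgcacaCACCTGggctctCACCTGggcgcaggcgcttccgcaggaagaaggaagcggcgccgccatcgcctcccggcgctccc
PTHLH: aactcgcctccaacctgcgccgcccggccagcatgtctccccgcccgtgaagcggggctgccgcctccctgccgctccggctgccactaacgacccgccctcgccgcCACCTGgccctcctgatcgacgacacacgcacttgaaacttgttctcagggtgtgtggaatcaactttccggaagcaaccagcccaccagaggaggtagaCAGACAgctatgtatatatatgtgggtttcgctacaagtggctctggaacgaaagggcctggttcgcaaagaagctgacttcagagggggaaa
AP1M2, an epithelial clathrin adaptor subunit, had 1816, 1869 and 1788 at d0 and 1814, 1781 and 1730.2 at d7 and a log2 fold change of -0.04 (-0.02), and was not called in either fit. PTHLH, a parathyroid hormone-like peptide, had 68.5, 56.0 and 73.2 at d0 and 303, 283 and 254 at d7, above d0 in all 3 d7 libraries. A match gives the letters in the window and nothing on binding.

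Keratins moved in both directions and showed the third library apart. Among 9 basal and stress keratins, 4 (7) were higher and 1 (1) lower, and their median log2 fold change of 1.07 (1.36) turned to -0.33 after quantile normalization. One member passed through d7 alone, and the median of the other 8 was 0.56 (0.87), with 3 (6) higher. The medians in the d7 libraries were 1.42, 1.30 and -0.31. KRT17, a keratin of wounded and basal epithelium, had 37285, 38925 and 41718 at d0 and 184224, 169632 and 55169 at d7, and KRT6A, another keratin of wounded epithelium, had 25216, 25530.5 and 26874 at d0 and 124568, 116608 and 63731 at d7. KRT14 had 70384, 74242 and 73695 at d0 and 194493, 179577 and 112293 at d7 and KRT5, its basal partner, had 215354, 225595 and 232097 at d0 and 298352, 281986 and 149134 at d7. The first and second libraries were above d0 for all 4, while the third was lower in each and below d0 for KRT5. Quantile normalization, which gives every library the same set of values, turned the log2 fold change of KRT14 to -0.35 and that of KRT5 to -0.97. KRT16 had 4418, 4534 and 4138 at d0 and 15422, 14111 and 3515 at d7 and was called only without the third. KRT15, a further basal keratin, had 19251, 18940.1 and 19362 at d0 and 2583, 2514 and 941 at d7 and fell, at a log2 fold change of -3.39 (-2.91). Reads of KRT6A, KRT6B and KRT6C, and of KRT14, KRT16 and KRT17, can be shared between near-identical copies, so their separate values are uncertain.

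Of 10 simple and mucosal keratins 8 passed the filter, 2 (2) were higher and 4 (4) lower. Without 1 that passed through d0 alone, 3 (3) of 7 were lower. KRT7, of simple epithelia, had 12974, 12828 and 13559 at d0 and 28122, 27598 and 53364 at d7, highest in the third library, and KRT19 had 287, 295 and 283 at d0 and 655, 658 and 432 at d7. KRT18 had 7137, 7171 and 7763 at d0 and 2791, 2758 and 4329.8 at d7 and fell, at a log2 fold change of -1.19 (-1.41), whereas its partner KRT8 had 7642, 7732 and 8490 at d0 and 8227, 7711 and 8148 at d7 and was not called, except as lower, at -0.18, after rescaling to the same total. KRT13, of stratified mucosa, had 540.2, 602 and 604 at d0 and 62.3, 51.1 and 9.31 at d7 and fell, at a log2 fold change of -4.17 (-3.34). Of 32 genes of the cornified envelope, the cross-linked shell of differentiated keratinocytes, 25 passed, 2 (2) were higher and 16 (19) lower, with medians in the d7 libraries of -0.99, -1.17 and -2.43. Of these members 5 passed through d0 alone and 1, LCE3D, through d7 alone, and these had to differ. Among the other 19 members 1 (1) was higher and 11 (14) lower, with a median of -1.37 (-0.86). The third library was the lowest of the 3 for 23 of the 25, against 42.1% of all genes tested, for which it was the highest in 43.5%. S100A9 had 394, 414 and 417 at d0 and 80.2, 112 and 51.2 at d7, the protease KLK7 had 501, 517 and 531 at d0 and 189.9, 158 and 34.4 at d7, and TGM1, the cross-linking transglutaminase, had 259, 226 and 238 at d0 and 88.7, 106 and 43.7 at d7. IVL, the envelope precursor involucrin, went the other way, with 89.9, 113 and 125 at d0 and 1170.3, 1006 and 713 at d7, as did LCE3D, with 4.45, 1.70 and 0 at d0 and 46.4, 52.1 and 25.1 at d7. Both were several times d0 in all 3 d7 libraries and lowest in the third.

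Growth factor signalling genes were also measured. Of 12 EGF receptor family genes and ligands tested, 2 (2) were higher and 6 (7) lower. Without 2 that passed through d0 alone, 4 (5) of 10 were lower. EGFR had 5169, 4799 and 4846 at d0 and 8532, 8205 and 7746 at d7 and rose by 0.72 (0.76), its ligand AREG had 39.2, 39.9 and 36.6 at d0 and 379.9, 353 and 114 at d7, and ERBB3 had 1069.7, 1042 and 1058 at d0 and 523, 490 and 333 at d7 and fell, at a log2 fold change of -1.26 (-1.06). AREG was above d0 in all 3 libraries and lowest in the third. Of 25 WNT and Notch genes tested of 27 listed, 18 (20) were higher and 3 (3) lower. Leaving aside 2 that passed through d7 alone, 16 (18) of 23 were higher and 3 (3) lower. AXIN2, a feedback gene of WNT signalling, had 2.67, 2.54 and 0.99 at d0 and 98.1, 91.8 and 39.1 at d7, at least 28.0 (34.8)-fold higher against the floor of 3 reads. The Notch ligand JAG1 had 1181, 1111 and 1056 at d0 and 3195, 3139 and 2681 at d7 and rose by 1.43 (1.51). The receptors differed between libraries: NOTCH1 had 1800.3, 1768 and 1679 at d0 and 7660.4, 7044 and 1655 at d7 and NOTCH3 had 2013, 2087 and 1940.2 at d0 and 2973, 2634 and 609 at d7. The first and second libraries were far above d0 for NOTCH1, while the third was just below the d0 mean, and NOTCH1 had a log2 fold change of 1.35 (2.07) with an adjusted p of 0.0573 (1.99e-25). WNT4 and NRARP fell, at log2 fold changes of -1.43 (-1.10) and -1.33 (-1.22). Of 19 PDGF, FGF and IGF genes tested, 10 (11) were higher and 4 (5) lower, with IGFBP3 rising the most, IGFBP5 falling from a d0 mean of 39.1 to 8.44, 3.13 and 1.86, and FGFBP1, a carrier of FGFs, falling from 6723, 6898 and 7465 to 813, 849 and 1298. Without 1 of these genes that passed through d0 alone, 3 (4) of 18 were lower.

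Cell cycle genes were counted as 2 lists. Of 43 S phase genes, 39 (42) were lower and 1 (1) higher, with a median log2 fold change of -0.63 (-0.74), and medians of -0.80, -0.69 and -0.52 in the d7 libraries. MCM6, a subunit of the replicative helicase, had 2769, 2903 and 3024 at d0 and 1141, 1242 and 1589 at d7, and CDCA7 had 1956, 1979.7 and 1997 at d0 and 737, 787 and 1112 at d7. The third library lay between the other d7 libraries and d0 for both. TYMS, thymidylate synthase, was the member called higher, at 0.22 (0.27), and it was not called without any 1 of the other 5 libraries (adjusted p = 0.0651 to 0.111). Of 54 genes of G2 and mitosis, 0 (0) were higher and 30 (54) lower, with medians of -0.50, -0.45 and -0.06. MKI67, the proliferation antigen Ki-67, had 10626, 10739 and 10649 at d0 and 7209.8, 6834 and 11850.1 at d7, and CDC20, an activator of the anaphase-promoting complex, had 6489, 6878 and 6665 at d0 and 3755, 3825 and 7018 at d7. The first and second libraries were below d0 for both and the third above the d0 mean, and the third was the highest of the 3 for 52 of the 54 genes. Leaving out any other single library gave 16 or 17 lower genes of G2 and mitosis.

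Among the p53 targets tested, 22 in all, 16 (22) were higher and 0 (0) lower, with a median log2 fold change of 0.94 (1.26) and medians of 1.27, 1.26 and 0.28 in the d7 libraries. CDKN1A, the cell cycle inhibitor p21 and also a TGFβ target, had 1937, 1831 and 1668 at d0 and 22956, 20636 and 4839.8 at d7, a log2 fold change of 2.87 ± 0.52 (SE, 3.59 ± 0.05 without the third) with an adjusted p of 0.00277 (3.33e-30). TP53INP1 had 213, 221 and 209.8 at d0 and 2249, 2310.3 and 598 at d7 and MDM2, the ubiquitin ligase of p53, had 1516, 1369.8 and 1466 at d0 and 3837, 3839 and 1039 at d7. MDM2 was far above d0 in the first and second libraries and below d0 in the third, and it was called only without the third. GADD45A had 1121, 1002 and 1081 at d0 and 3556, 3538 and 1449 at d7, and TP53I3 had 459, 421 and 462 at d0 and 1776, 1919 and 1779 at d7. TP53I3 was alike in all 3 d7 libraries, and the third library was the lowest of the 3 for 21 of the 22 genes. Large T antigen, which HMLE cells carry, is known to bind p53. Among CDK inhibitors, cyclins and MYC, 4 (8) of 16 were higher and 3 (4) lower, at a median of 0.17 (0.14) that turned to -0.02 after rescaling to the same total. CDKN2B, the inhibitor p15 and a TGFβ target in epithelial cells, had 1103, 1025 and 918 at d0 and 2019, 1849.5 and 900 at d7, CDKN1C had 60.5, 75.5 and 46.5 at d0 and 233, 187 and 59.6 at d7 and MYC had 3966, 3618 and 3204 at d0 and 6945, 6459 and 2333 at d7. For CDKN2B and MYC the first and second libraries were well above d0 and the third below it, and for CDKN1C the third was at the d0 level. CCND1, cyclin D1, had 1284, 1304 and 1451 at d0 and 3018, 3059 and 3204 at d7, alike in all 3 d7 libraries, and E2F1 fell, at a log2 fold change of -0.83 (-0.995).

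**Figure D5:**
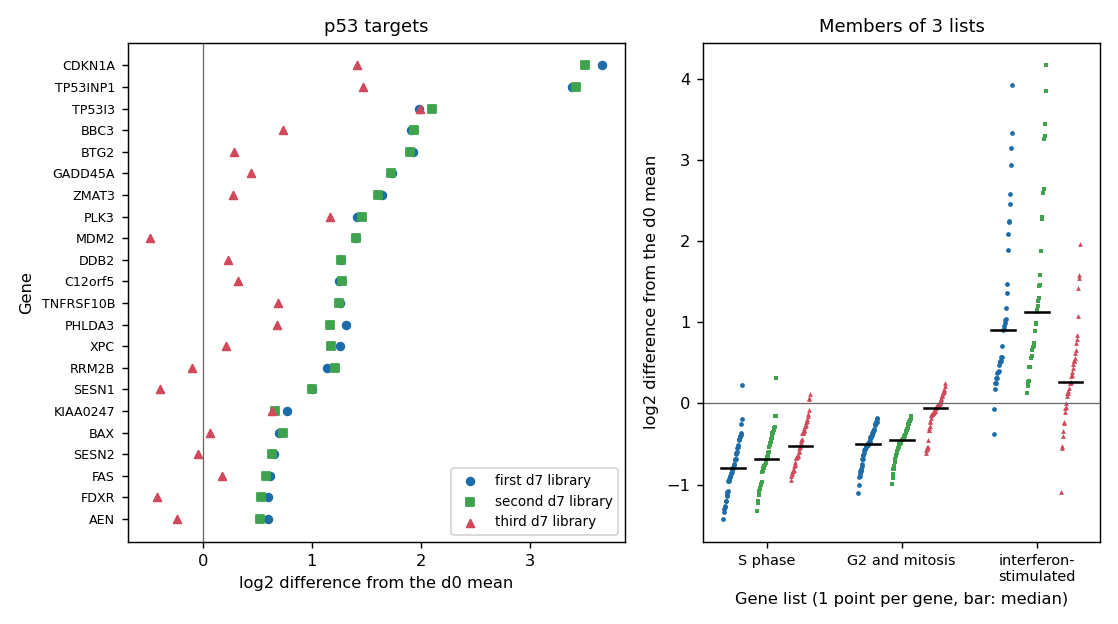
Log2 difference from the d0 mean in each d7 library, for each p53 target (left) and for the members of the S phase, G2 and mitosis and interferon-stimulated lists (right, bars at the medians). The third library is lowest for 21 of 22 p53 targets and for 35 of 37 interferon-stimulated genes, and highest for 52 of 54 genes of G2 and mitosis.

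Of 40 interferon-stimulated genes listed 37 passed the filter, 26 (35) were higher and 0 (0) lower, with medians of 0.91, 1.13 and 0.26, and the third library was the lowest of the 3 for 35 of the 37. Of the 37, 2 passed through d7 alone, and among the other 35 members 24 (33) were higher, with a median of 0.58 (0.91). Without any one of the d0 libraries, or without the first d7 library, 16 or 17 of the 37 were higher. IFI6 had 69.4, 68.7 and 60.4 at d0 and 1016, 1203 and 259.7 at d7, OAS2, a sensor of double-stranded RNA, had 53.4, 43.3 and 39.6 at d0 and 407, 663 and 123 at d7, and MX1, an antiviral GTPase, had 79.2, 81.4 and 84.1 at d0 and 492, 807 and 121 at d7. The second library was the highest for all 3 genes, the first next and the third nearest to d0, and the MX1 call did not pass without any 1 d0 library or the first d7 library (adjusted p = 0.0526 to 0.0576). ISG15, a ubiquitin-like modifier, had 105, 120.4 and 103 at d0 and 408, 541 and 173 at d7, and IRF9, part of the interferon-activated transcription complex, had 203, 182 and 158 at d0 and 996, 1095 and 543 at d7. IFIT1 had 198, 236 and 215 at d0 and 311, 534 and 163 at d7 and was called only without the third. Of 13 MHC class I and antigen processing genes 10 (10) were higher and 0 (0) lower, with HLA-E, the largest, at a log2 fold change of 0.79 (0.92), and reads of HLA genes can be shared between copies. Among 20 inflammatory cytokines and chemokines tested of 27 listed, 12 (12) were higher and 2 (2) lower. Leaving aside 2 that passed through d7 alone, 10 (10) of 18 were higher. IL32 had 42.7, 58.5 and 63.3 at d0 and 388, 399 and 452 at d7, IL1A had 1404, 1146 and 1324 at d0 and 4603, 4307 and 2006 at d7, and IL1RN, the receptor antagonist, had 305, 284 and 309 at d0 and 187, 143 and 66.1 at d7. IL6 had at most 1 read in every library.

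Metabolic and stress genes were also counted. Cholesterol synthesis genes were lower in 16 (19) and higher in 3 (4) of 25, and lower in 10 without the second d0 library. HMGCS1, the enzyme before the rate-limiting step, had 5978, 5907 and 6056 at d0 and 2695, 2864 and 3846 at d7, and TM7SF2 fell, at a log2 fold change of -1.46 (-1.44). Of 21 ATF4 and amino acid response genes 13 (14) were lower and 4 (5) higher, with PSAT1, of serine synthesis, at 6259, 6054 and 6122 at d0 and 2545, 2524 and 3441 at d7 and ASNS, asparagine synthetase, at 5122, 4838 and 4915 at d0 and 2069, 2064 and 3705 at d7. Of 18 NRF2 targets 10 (11) were lower and 2 (2) higher, and GPX2, a glutathione peroxidase, had 134, 157 and 164 at d0 and 14.8, 8.34 and 29.8 at d7. Of 27 hypoxia and glycolysis genes 9 (11) were higher and 8 (12) lower. CA9, a carbonic anhydrase induced by hypoxia, had 1756, 1824 and 1763 at d0 and 336, 319 and 207 at d7, while NDRG1 had 11135, 11962 and 12546 at d0 and 35782, 34067 and 25472 at d7, and the glycolytic GAPDH had a log2 fold change of 0.05 (0.06), or -0.73 after quantile normalization. Lysosomal and GPNMB-type genes were higher in 15 (18) of 22, with CTSB, a cathepsin, at 3718, 3649.8 and 3696 at d0 and 10492, 10247 and 9481 at d7, and lower in 1 (2), and without any one d0 library 0 were lower. GPNMB, a membrane glycoprotein, was called only without the third library, at a log2 fold change of 1.70 (2.67). Genes of ER folding and secretion were higher in 10 (13) and lower in 1 (4) of 25, at a median of 0.16 (0.09) that turned to -0.03 after rescaling to the same total. Of 10 metallothioneins, whose reads can be shared between copies, 5 passed, and 3 (3) were higher and 0 (1) lower, led by MT1X at 0.96 (1.21).

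The study's signature holds 101 genes, which it took from basal epithelial cells of tumour single-cell data and not from these libraries. The study had already described their expression in this time course, so the counts here are no new evidence of a direction. In the file were 100 of them, and 91 passed the filter. Of these 64 (74) were higher and 6 (11) lower, with a median log2 fold change of 0.57 (0.71). Leaving aside 1 member that passed through d0 alone, 5 (10) of 90 were lower. TAGLN, LAMA3 and AMIGO2 rose the most, with AMIGO2, an adhesion protein, at 451, 441 and 554 at d0 and 2717, 2736 and 5261 at d7. The genes called lower in both fits were CTNNAL1, IGFBP5, LY6E, NFIB, SAA1 and TPM2, and ANXA1, ANXA3, MT2A, NRP1 and TINAGL1 were added without the third library. AMIGO2 and MT2A were higher in the third library than in the others, MT2A with 22726, 24492 and 27283 at d0 and 22923, 20291 and 44658 at d7.

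The genes that set the third d7 library apart are given as a description, with no test. Among 11547 genes with a d7 mean of at least 50, the third library was at least 2-fold above the mean of the others for 54 (0.468%) and at least 2-fold below for 275 (2.38%). That d7 mean includes the third library, and the first and second together weigh more in it. Genes low in the third can pass through the first and second alone, so the counts above and below cannot be set against each other. The 10 furthest above were, in order, FOSB, CDH11, SH2D2A, ANGPTL4, ADAM12, FOS, MYH15, AKAP12, SYT12 and ACAN. Of these, FOSB, SH2D2A, ADAM12, MYH15, SYT12 and ACAN averaged under 50 in the first and second libraries and passed through the third alone. FOSB and FOS, immediate early factors, had 31.7, 25.0 and 259 and 606, 559 and 2055 in the d7 libraries against d0 means of 25.3 and 182. FOS was 1378 on average at d4 and 249 at d10, and FOSB was 70.2 and 18.3. ANGPTL4, a regulator of lipoprotein lipase, had 261, 243 and 892 at d7 and means of 807 at d4 and 2077 at d10, and AKAP12, a kinase anchor, had 929, 833 and 3077 at d7 and means of 1747 and 3855. The third d7 library lay between the d4 and d10 means for 5 of the 10, CDH11, ANGPTL4, ADAM12, AKAP12 and ACAN, above both for FOSB, FOS and SYT12 and below both for SH2D2A and MYH15. SYT12 was the exception in its relation to d0, with 246, 255 and 239 at d0 and 45.4, 32.3 and 120.1 at d7, and ACAN, the proteoglycan aggrecan, had 0, 0.85 and 0 at d0 and 43.3, 31.3 and 114 at d7.

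The 10 genes furthest below were at 7.57% to 14.4% of the mean of the first and second libraries. EDN2, an endothelin peptide, had 142, 128 and 10.2 at d7 against a d0 mean of 37.3, and 8.96 on average at d4 and 1.63 at d10. CXCL14, an epithelial chemokine, had 286, 261 and 271 at d0 and 413, 426 and 41.9 at d7, with means of 45.8 at d4 and 5.23 at d10. KITLG, the ligand of the KIT receptor, had 399.6, 374 and 367 at d0 and 1201, 1156 and 160.1 at d7, with means of 162 and 73.7. In these 3 genes the third library was below the d0 mean, whereas the first and second were above d0. The others were RTN1, ZNF750, PRODH, GPNMB, NCRNA00086, TREM2 and IFI44L. PRODH, a proline oxidase and p53 target, had 197, 198 and 207 at d0 and 529.8, 514 and 62.4 at d7, with means of 92.4 at d4 and 4.59 at d10, and ZNF750, a factor of epidermal differentiation, had 198, 168 and 214 at d0 and 100.2, 107 and 11.2 at d7, below d0 in all 3 d7 libraries, with means of 36.0 and 4.87. The third library lay between the d4 and d10 means for 7 of the 10 and above both for EDN2, RTN1 and NCRNA00086.

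Against the neighbouring days, fitted together with d7 on 13276 genes with the same d7 libraries in both contrasts, 252 (460) genes were higher and 193 (290) lower at d7 than at d4, which is 1.90% (3.46%) and 1.45% (2.18%). At d7, 1184 (1426) genes were higher and 476 (692) lower than at d10, which is 8.92% (10.7%) and 3.59% (5.21%). The filter here was a mean of at least 10 over the d4, d7 and d10 libraries. Genes low on 1 day could pass through another day and had to differ, such as IFI44L, at 8.18 on average at d10 and 365 at d7. Such members were not set aside in the list counts against d4 and d10. At an adjusted p alone, 19.9% (29.2%) of genes were higher and 21.1% (30.4%) lower than at d4, and 32.5% (36.8%) were higher and 34.3% (38.7%) lower than at d10. By that rule interferon-stimulated genes were higher at d7 than at d4 in 22 (36) of 37 and lower in 0 (1), and higher than at d10 in 34 (34) and lower in 1 (1). The p53 targets were higher than at d4 in 12 (19) of 22 and lower in 1 (1), and higher than at d10 in 17 (20) and lower in 1 (1). S phase genes were higher than at d4 in 25 (26) of 43 and lower in 1 (6), and higher than at d10 in 0 (0) and lower in 41 (42). Genes of G2 and mitosis were higher than at d4 in 20 (22) of 54 and lower in 1 (9), and higher than at d10 in 5 (5) and lower in 30 (45). The basal and stress keratins were higher than at d4 in 6 (9) of 9 and than at d10 in 9 (9), with 0 lower, and KRT17 differed from d10 by 3.17 (3.73) on the log2 scale. Epithelial regulators were higher than at d4 in 4 (8) of 20 and lower in 5 (5), and higher than at d10 in 18 (18) and lower in 1 (1), and CDH1 differed from d10 by 0.96 (1.06). ZEB1 differed from d10 by -2.01 (-2.32), CDH2 by -1.52 (-1.73) and CDH11 by -3.02 (-3.74), all lower at d7. FN1 differed from d4 by 0.00 (-0.07) and from d10 by -0.14 (-0.22). Fibrillar matrix genes were higher at d7 than at d4 in 13 (16) of 23 and lower in 1 (4), and higher than at d10 in 12 (13) and lower in 5 (7), with COL1A1 at 0.75 (0.86) against d4 and 0.81 (0.92) against d10.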

How the data were processed

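Total RNA of HMLE cells was extracted with Trizol and sequenced from standard Illumina libraries, and the study describes biological triplicates. The submitters' processing notes name STAR 2.7, Salmon 1.4 and the genome build hg19, without role or order, and the counting strand is not given in the sources used here, so reads of overlapping genes cannot be told apart. The authors deposited a normalized signal per gene symbol and library. Per the values, it is a count of whole reads divided by 1 size factor per library and rounded to 2 decimals: 100% of the values checked came out whole within 0.0055 of the printed value, and the factors were 0.9997 to 1.0003 times those of a median-of-ratios calculation. This scaling assumes that most genes do not change. All 21 columns map to a timepoint by their headers. Mitochondrially encoded genes are not among the symbols used here.

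Genes with a mean of at least 10 over the 6 libraries were tested on log2(value + 1), which understates the change of low genes, with limma 3.58.1 in R 4.3.3 (lmFit and eBayes with a trend) and a Benjamini-Hochberg adjustment over all 13388 genes. The fit was repeated without the third d7 library. Counts over all genes used an adjusted p under 0.05 and a log2 fold change of 1 or more in either direction, and members of the 43 gene lists an adjusted p under 0.05 alone. The floor was 3 reads per library, which covers counting error only, and lower bounds of a fold were set against the mean value of 3 reads in the group. With 3 libraries a group, p-values rest on the spread between these libraries, which may be technical. The fit draws each gene's variance towards a trend shared by all genes, so a p-value does not rest on that gene's spread alone. The sizes of adjusted p with and without the third d7 library are therefore not to be compared. The d4 and d10 libraries were fitted together with d7.

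The genes named are the 10 largest increases and decreases among called genes with a mean of at least 50 in 1 group and groups that do not overlap, the 10 genes furthest above and below in the third d7 library, the 15 hallmark genes and the most changed members of each list. Further members are named for their role or to complete a count, with their values known, and some genes that the rule covers are not reported here. The members and lists were chosen with earlier results of these data known. The fits were first tested on simulated counts with known changes. In these no library lay apart and far fewer genes changed, so they do not show how the fits behave with the third d7 library. The alternatives were other scalings, pseudocounts, filters and samples in the fit, library weights, edgeR 4.0.16 and DESeq2 1.42.0 on the recovered reads, and each library left out. Python 3.11.15 and matplotlib 3.10.9 drew the figures.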

Additional observations from a re-analysis of the deposited data

How the results depend on the processing

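Without a minimum fold, d7 had 3730 higher and 3473 lower genes, and 4802 and 4575 without the third d7 library. Rescaling each library to the same total gave 848 higher and 677 lower genes, and 997 and 817 without the third library. Under a pseudocount of 10, no filter (18564 genes), quantile normalization, all timepoints in the fit, library weights, edgeR and DESeq2, the counts stayed within 1.5 times of 1110 and 432, at 953 to 1434 and 333 to 607. Leaving out 1 library at a time gave 987 to 1303 higher and 396 to 500 lower genes, and 1239 to 1333 and 495 to 544 with the third d7 library left out as well. Against d4 it gave 172 to 460 higher and 170 to 290 lower genes, and against d10 1027 to 1426 and 391 to 692. The alternatives that leave out a library in addition to the third, or in the comparisons with d4 and d10, were chosen after seeing the data. Where 1 library was left in a group, it is assumed to vary like the other group.

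Of the 234 genes named and tested, 11 had a log2 fold change that turned sign where it was called before or after. Without the third d7 library these were CXCL14, KRT6B, MT2A, NOTCH3 and TREM2, whose ranges with any 1 library left out were -1.04 to 0.62, -0.59 to 0.23, -0.20 to 0.37, -0.67 to 0.48 and -0.53 to 0.92, and with library weights CXCL14 (0.54), MT2A (-0.21), NOTCH3 (0.35) and TREM2 (0.80). Quantile normalization turned GAPDH (-0.73), KRT14 (-0.35) and KRT5 (-0.97), and the same total turned KRT8 (-0.18), SMAD2 (-0.17) and SMAD4 (-0.045). The cause was not tested. At the depth of these libraries, genes with few reads at d0, such as ZEB1, have wide errors, and genes at the floor allow lower bounds only. No paired analysis was possible because no replicate number stands in the column headers.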
